A study of Rattus norvegicus with 10 samples.

Results

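The genes described here mark inhibitory interneurons of the hippocampus and the machinery that makes GABA, their transmitter. There are 10 of them among the 17168 genes of the deposited count table, chosen by symbol, though with earlier results of these data known: Gad1, Gad2, Slc32a1, Pvalb, Sst, Vip, Npy, Cck, Calb2 and Reln. All 10 had at least 10 counts in every library and passed the filter on low counts, which left 12161 genes for testing.

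The left hippocampus was taken at 11 months of age from 10 male rats of the TgF344-AD line, and its mRNA was sequenced. TgF344-AD rats carry human mutant APP and presenilin transgenes driven by the mouse prion promoter and are used as a model of Alzheimer's disease. The 5 untreated rats ate rodent chow, and the 5 RG2833 rats ate chow with 750 mg of RG2833 per kg for 6 months from 5 months of age. RG2833 inhibits the histone deacetylases HDAC1 and HDAC3. All 10 rats carry the transgenes, so the comparison is of drug against no drug within transgenic males, and no wild-type rat was analysed here. A sentence of the series' design text on the timing names ibudilast, while the title and every treatment label name RG2833, which was followed. Each library is labelled as 1 rat.

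Interneurons are a minority of hippocampal neurons, and nearly all of them release GABA. The enzymes GAD67 and GAD65, encoded by Gad1 and Gad2, make GABA from glutamate, and the vesicular transporter VGAT, encoded by Slc32a1, loads it into synaptic vesicles. Classes of interneurons are told apart by calcium-binding proteins and neuropeptides: parvalbumin marks fast-spiking basket and chandelier cells, somatostatin marks cells that contact dendrites, and vasoactive intestinal peptide and calretinin mark cells that mostly inhibit other interneurons. Loss of hippocampal interneurons and of somatostatin and neuropeptide Y has been studied widely in Alzheimer's disease and its models.

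Total expected counts ran from 15118203 to 18533520 per library. Most hippocampal cell markers were detected: Prox1 and C1ql2 of dentate granule cells averaged 32.0 and 81.8 CPM (the count of a gene relative to its library size, TMM-scaled) in untreated rats, while Tdo2 of that list was at 0 in all libraries and the CA3 marker Iyd had 0 to 2 counts. Dsp, Dock10 and Nectin3 of these lists were not matched by symbol. Untreated replicate 2 and RG2833 replicate 1 stood apart by choroid plexus RNA, with 8216 and 9509 CPM summed over 11 choroid plexus genes against 13.6 to 295 CPM in the other 8 libraries. Untreated replicate 3 had the lowest summed dentate granule markers (98.4 CPM, against 131 to 259 CPM elsewhere) and CA3 markers (129.7 CPM, against 172 to 504 CPM), and the highest ribosomal RNA share (11.4%). RG2833 replicates 4 and 5 were like it in part, with CA3 sums of 241 and 172 CPM against 400 to 504 CPM in the remaining libraries. Excitatory neuron markers summed to 4357, 4657 and 4583 CPM in untreated replicate 3 and RG2833 replicates 4 and 5, against 5098 to 6248 CPM. Pan-neuronal sums were 3423, 3695 and 3638 CPM in the same order, against 4337 to 5263 CPM. These libraries are spread unevenly over the groups, and the part of this in the comparisons was not tested.

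None of the 10 genes passed the comparison of RG2833 with untreated rats after adjustment over all genes. By edgeR's quasi-likelihood test 0 of 12161 genes (0%) had an adjusted p under 0.05, the lowest value being 0.841. Before adjustment, 4 of the 10 members had a p under 0.05, against 688 of 12161 genes (5.66%). Calb2, Sst and Npy had lower levels in RG2833 rats and Pvalb a higher one, where 2.71% of all genes were lower and 2.94% higher at that p. Several members mark the same cells, and given how they were chosen this count is a description. DESeq2 called 7 genes at an adjusted p under 0.05 and limma-voom called 0; no member was among the 7. In none of the 10 members were the groups free of overlap, against 1% of all genes (0.584% with RG2833 lower and 0.419% with RG2833 higher). The median log2 fold change of the members was -0.11, against -0.01 over all genes tested, with 8 members lower and 2 higher, where 53.5% of all genes had a log2 fold change below 0. Pan-neuronal markers lay on the lower side too, 6 of 6 with a median of -0.12 and 0 at an unadjusted p under 0.05, with summed levels of 3423 to 5263 CPM in untreated and 3638 to 4854 CPM in RG2833 rats; their part in the members' values was not tested. In bulk tissue, fewer cells of a type and less RNA per cell cannot be told apart.

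**Figure D1:**
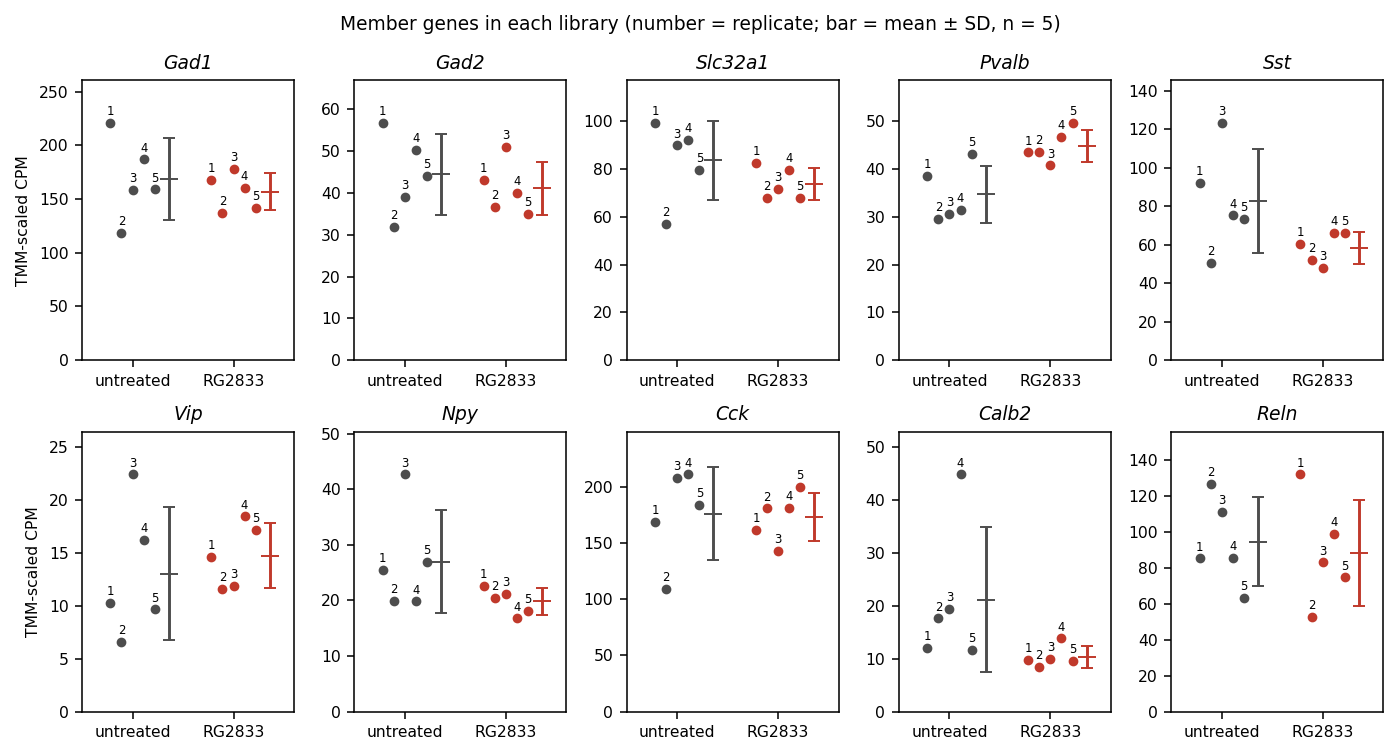
TMM-scaled CPM (vertical axis, from 0) of the 10 member genes in 5 untreated (grey) and 5 RG2833 (red) libraries; numbers give the replicate, and bars the mean and SD. Pvalb lies higher and Calb2, Sst and Npy lie lower in RG2833 rats, and the groups overlap in every panel.

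Of the genes of GABA synthesis and vesicular loading, none had an unadjusted p under 0.05. Gad1 was at 220.8, 118.3, 158.6, 186.9 and 159.0 CPM in untreated replicates 1 to 5 and at 167.8, 136.8, 178.1, 160.5 and 141.4 CPM in RG2833 replicates 1 to 5. The highest and the lowest Gad1 values both belonged to untreated rats, and the RG2833 values lay between them. Gad1 had a log2 fold change of -0.10 (SE 0.15, 95% interval -0.43 to 0.22; edgeR adjusted p = 0.951). Without untreated replicate 1 it was 0.0115, so its sign rested on that library.

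Gad2, which encodes the form of the enzyme concentrated at nerve terminals, had a nearly matching order of libraries. It was at 56.7, 32.0, 39.1, 50.2 and 44.1 CPM in untreated and 43.1, 36.6, 50.9, 39.96 and 34.9 CPM in RG2833 rats. Its log2 fold change was -0.11 (SE 0.15, interval -0.45 to 0.23; edgeR adjusted p = 0.949), and it was -0.00821 without untreated replicate 1. The ratio of Gad1 to Gad2 counts, not corrected for transcript length, stayed between 3.50 and 4.06 over the 10 libraries. The pair correlated at Pearson r = 0.960 and Spearman rho = 0.939 over the 10 libraries (permutation p = 3e-05 and 0.00017; adjusted over 45 member pairs 0.00135 and 0.00765), and at r = 0.927 without the 2 libraries farthest from the median of Gad1.

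Slc32a1 was at 99.3, 57.1, 90.0, 92.1 and 79.5 CPM in untreated and at 82.5, 68.1, 71.6, 79.5 and 68.0 CPM in RG2833 rats. Each of the 5 RG2833 rats was under the mean of the untreated ones (83.6 CPM), but untreated replicate 2 was lower than any of them. Its log2 fold change was -0.18 (SE 0.13, interval -0.47 to 0.12; edgeR adjusted p = 0.901). Without untreated replicate 2, one of the 2 libraries rich in choroid plexus RNA, it was -0.29 with an unadjusted p of 0.00792 and an adjusted p of 1.00. Untreated replicate 2 also had the lowest values of all 10 libraries for Gad1, Gad2, Pvalb, Vip and Cck. The part of its choroid plexus RNA in these values was not tested.

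Pvalb, which encodes the calcium buffer of fast-spiking interneurons, was the member with the smallest unadjusted p and the higher of the pair of members with a positive fold change. It was at 38.5, 29.6, 30.6, 31.5 and 43.1 CPM in untreated replicates 1 to 5. In RG2833 replicates 1 to 5 it was at 43.4, 43.5, 40.7, 46.6 and 49.6 CPM. Only untreated replicate 5 reached into the RG2833 range, and 4 of the 5 RG2833 values lay above every untreated value. The means were 34.7 ± 5.89 CPM and 44.8 ± 3.39 CPM (SD, n = 5 each). This is 1.29 times the untreated level (95% interval 1.09 to 1.53), a log2 fold change of 0.37 (SE 0.11; unadjusted p = 0.00667, edgeR adjusted p = 0.841).

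Under all 20 alternatives the Pvalb fold change stayed positive, from 0.26 to 0.46, with an unadjusted p between 0.000584 and 0.0314, and in none did it pass the adjustment over all genes. Syt2, a vesicle calcium sensor used at the terminals of parvalbumin cells, had the largest positive fold change of the 23 tested subtype genes. It was at 6.98, 3.33, 5.91, 3.98 and 6.08 CPM in untreated and 6.65, 7.33, 8.95, 9.46 and 10.0 CPM in RG2833 rats. Of the RG2833 values only that of replicate 1 lay within the untreated range. The log2 fold change of Syt2 was 0.69 (SE 0.21; unadjusted p = 0.00724, edgeR adjusted p = 0.841). The 2 highest values of Pvalb and of Syt2 were in RG2833 replicates 4 and 5, whose neocortical markers summed to 209 and 248 CPM. Untreated replicate 3, at 240 CPM, had 30.6 CPM of Pvalb and 5.91 CPM of Syt2. Over the 10 libraries Pvalb and the neocortical list had r = 0.236 and rho = 0.539 (permutation p = 0.504 and 0.112, adjusted 0.915 and 0.586). The part of neocortical tissue in these values was not tested. Of other genes used by parvalbumin cells, the potassium channel genes Kcnc1 and Kcnc2 had log2 fold changes of -0.12 and 0.06. The transcription factor genes Lhx6, Sox6 and Satb1 had 0.11 (SE 0.16), 0.30 (SE 0.20) and 0.34 (SE 0.24). None of these had an unadjusted p under 0.05. Cox6a2 of the subtype list, too low to be tested, had 22, 25 and 25 counts in untreated replicate 3 and RG2833 replicates 4 and 5, and 2 to 7 elsewhere.

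Sst encodes somatostatin, a peptide that dampens dendritic input, and its mean mRNA level was lower in RG2833 rats without passing adjustment. Sst was at 92.0, 50.4, 123.2, 75.2 and 73.3 CPM in untreated replicates 1 to 5 and at 60.2, 52.1, 47.8, 66.1 and 66.3 CPM in RG2833 replicates 1 to 5. In 4 of the 5 untreated rats Sst exceeded every RG2833 value, and the exception was untreated replicate 2. The means were 82.8 ± 27.0 and 58.5 ± 8.33 CPM (SD, n = 5 each). The RG2833 level was 0.706 times the untreated one (interval 0.517 to 0.966), a log2 fold change of -0.50 (SE 0.20; unadjusted p = 0.0326, edgeR adjusted p = 0.841). Without untreated replicate 3 it was -0.32 with an unadjusted p of 0.0801, and without untreated replicate 2 it was -0.64 with 0.00317. In 5 of the 20 alternatives the unadjusted p of Sst was above 0.05.

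Npy encodes neuropeptide Y, which is made by many somatostatin cells and by neurogliaform cells and restrains glutamate release. Npy was at 25.4, 19.98, 42.7, 19.8 and 27.0 CPM in untreated and at 22.6, 20.4, 21.2, 16.8 and 18.1 CPM in RG2833 rats. Untreated replicates 1, 3 and 5 lay above all RG2833 values, while untreated replicates 2 and 4 lay within their range. Npy had a log2 fold change of -0.44 (SE 0.20, interval -0.88 to -0.00316; unadjusted p = 0.0486, edgeR adjusted p = 0.841). Without untreated replicate 3 it was -0.22 with an unadjusted p of 0.111. In 11 of the 20 alternatives the unadjusted p of Npy was above 0.05, among them median-of-ratios scaling (0.0509) and upper-quartile scaling (0.0506).

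Sst and Npy were both highest in untreated replicate 3, the library lowest in dentate granule and CA3 markers. Their correlation over the 10 libraries was r = 0.738 and rho = 0.370 (permutation p = 0.0188 and 0.295; adjusted 0.121 and 0.830). It was r = 0.0713 without untreated replicates 1 and 3, so it rested on those libraries. Untreated replicate 3 also had the highest microglia sum (758 CPM over 6 genes, against at most 606 CPM elsewhere) and the lowest excitatory neuron sum (4357 CPM over 5 tested genes, against 4583 to 6248 CPM). The part of these differences in its Sst and Npy mRNA levels was not tested.

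The start regions of Sst, Npy and Pvalb are shown because these genes had an unadjusted p under 0.05, and that of Vip, which did not, as another peptide gene for comparison. Of the 10 members 8 matched the RefSeq table of the GRCr8 assembly, which differs from the rn6 build that the submitters' processing notes name, and Cck and Calb2 are named only. Each window holds 280 bases, from 250 before to 30 after the annotated start, 5′ to 3′ on the gene's strand. Capitals mark matches, on either strand, to TGACGTCA (the cAMP response element), its core TGACGT, the homeodomain core TAATTA, the TATA box TATAAA or the GC box GGGCGG. The GRCr8 positions are chr11:90461296-90461575 (+) for Sst, chr1:44470230-44470509 (+) for Vip, chr4:80211861-80212140 (+) for Npy and chr7:111666260-111666539 (-) for Pvalb.
Sst: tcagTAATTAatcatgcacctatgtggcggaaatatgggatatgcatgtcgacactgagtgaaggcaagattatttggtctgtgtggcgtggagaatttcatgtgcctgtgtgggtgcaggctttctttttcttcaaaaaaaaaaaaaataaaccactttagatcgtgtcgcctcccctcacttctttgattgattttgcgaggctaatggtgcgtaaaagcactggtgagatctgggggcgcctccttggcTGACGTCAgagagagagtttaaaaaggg
Vip: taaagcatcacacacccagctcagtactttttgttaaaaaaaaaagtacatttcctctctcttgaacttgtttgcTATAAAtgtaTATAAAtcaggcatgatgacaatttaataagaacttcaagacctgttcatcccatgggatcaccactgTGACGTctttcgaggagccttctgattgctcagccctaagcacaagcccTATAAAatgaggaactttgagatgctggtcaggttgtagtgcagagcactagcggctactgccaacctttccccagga
Npy: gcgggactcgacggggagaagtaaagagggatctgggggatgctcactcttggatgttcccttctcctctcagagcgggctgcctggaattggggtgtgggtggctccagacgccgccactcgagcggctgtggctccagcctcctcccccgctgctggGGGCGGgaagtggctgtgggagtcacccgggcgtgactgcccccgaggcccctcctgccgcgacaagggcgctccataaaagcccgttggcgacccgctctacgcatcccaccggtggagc
Pvalb: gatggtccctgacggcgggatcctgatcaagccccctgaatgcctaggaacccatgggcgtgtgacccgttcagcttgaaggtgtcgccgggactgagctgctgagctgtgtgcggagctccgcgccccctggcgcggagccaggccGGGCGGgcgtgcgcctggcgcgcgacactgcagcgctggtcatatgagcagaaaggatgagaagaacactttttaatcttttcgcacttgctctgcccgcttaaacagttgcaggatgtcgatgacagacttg

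TGACGTCA was found in the Sst window alone among the 8 members, beginning at base 3 after the annotated start, and in 1.78% of 33469 windows of the same length. The core TGACGT, which lies within that match, was in the windows of Sst and Vip and in 7.65% of all. In the Vip window it began 97 bases before the start. TAATTA was in the Sst window only (5.17% of all). TATAAA was in the windows of Gad1 and Vip (13.7% of all). It began 213 bases before the start in Gad1 and 175, 165 and 48 bases before it in Vip. GGGCGG was in 5 of the 8, Gad1, Npy, Pvalb, Reln and Slc32a1, and in 32.2% of all windows. These matches describe the letters and are not measured binding sites. Positions are counted from the annotated start, which was not set against a measured transcription start.

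Calb2, which encodes the calcium buffer calretinin, had the largest fold change of the members. It was at 12, 17.6, 19.5, 44.9 and 11.7 CPM in untreated replicates 1 to 5 and at 9.74, 8.40, 10.0, 13.8 and 9.61 CPM in RG2833 replicates 1 to 5. Untreated replicate 4 stood far above the rest, and 4 of the 5 RG2833 values lay below every untreated value. The means were 21.1 ± 13.7 and 10.3 ± 2.06 CPM (SD, n = 5 each). The RG2833 level was 0.489 times the untreated one (interval 0.286 to 0.837), a log2 fold change of -1.03 (SE 0.35; unadjusted p = 0.0139, edgeR adjusted p = 0.841). Without untreated replicate 4 it was -0.56 with an unadjusted p of 0.0171, so the size of the change, though not its side of 0.05, rested on that rat.

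Calretinin is also made by Cajal-Retzius cells, the reelin-secreting cells of the hippocampal fissure. Over the 10 libraries Calb2 and the mean of these cells' markers had r = 0.489 and rho = 0.309 (permutation p = 0.157 and 0.386; adjusted 0.680 and 0.828), and r = 0.0129 without untreated replicate 4 and RG2833 replicate 5, and did not pass adjustment. Of 5 such markers 3 were tested, all lower in RG2833 rats, 2 of them at an unadjusted p under 0.05: Ebf3 (log2 fold change -1.46, SE 0.53) and Nhlh2 (-0.71, SE 0.31), both with an edgeR adjusted p of 0.841. Ebf3 was at 8.14 CPM in untreated replicate 4, against 0.895 to 3.38 CPM in all other libraries. Nhlh2 lay at 1.55 to 2.45 CPM in untreated and 0.415 to 1.54 CPM in RG2833 rats, without overlap, as did 0.584% of all genes in that direction. The summed level of the tested markers was 6.27 to 22.6 CPM in untreated and 1.66 to 18.2 CPM in RG2833 rats. The top of both ranges was set by Tp73, at 17.6 and 15.3 CPM in the 2 libraries rich in choroid plexus RNA and at most 8.41 CPM elsewhere. Lhx5, another such marker, had 18 counts in untreated replicate 4 and 13 in untreated replicate 2, and 0 to 4 elsewhere. The part of these cells in the Calb2 values was not tested.

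Nkx2-1, a transcription factor gene of the ventral forebrain where many interneurons are born, was likewise highest in untreated replicate 4. It was at 4.59 CPM there and at 0.568 to 2.41 CPM in the other 9 libraries. Its log2 fold change was -1.25 (SE 0.49; unadjusted p = 0.0282, edgeR adjusted p = 0.841), and -0.71 with an unadjusted p of 0.0941 without that library. The unadjusted p of Nkx2-1 was under 0.05 in 11 of the 19 alternatives that kept it. The thalamus and habenula markers, another source of calretinin RNA, summed to 83.6 CPM in untreated replicate 4 and to 60.5 to 73.5 CPM elsewhere. Of these 6 tested genes 2 were higher and 4 lower, 0 at an unadjusted p under 0.05. Over the 10 libraries Calb2 and this list had r = 0.595 and rho = 0.455 (permutation p = 0.0551 and 0.191; adjusted 0.470 and 0.695), which did not pass, and r = 0.856 without untreated replicate 3 and RG2833 replicate 5. The smallest p for r of Calb2 was with the CA1 pyramidal cell list, at r = -0.739 and rho = -0.794 (permutation p = 0.00688 and 0.00883; adjusted 0.163 and 0.133), which did not pass, and r = -0.804 without the 2 farthest libraries. Of the 5 CA1 genes 4 were higher and 1 lower in RG2833 rats, 1 at an unadjusted p under 0.05, with summed levels of 471 to 1150 CPM in untreated and 684 to 1016 CPM in RG2833 rats. The part of these tissues and cells in the Calb2 values was not tested.

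Vip, which encodes vasoactive intestinal peptide, had 129 to 376 counts per library. It was at 10.3, 6.61, 22.4, 16.2 and 9.66 CPM in untreated and 14.6, 11.6, 11.9, 18.5 and 17.2 CPM in RG2833 rats. The untreated values spanned the RG2833 range on both sides. Vip had a log2 fold change of 0.18 (SE 0.30, interval -0.47 to 0.84; edgeR adjusted p = 0.958), and it lay at 0.465 without untreated replicate 3 and 0.0118 without untreated replicate 2. The 3 highest Vip values were in untreated replicate 3 and RG2833 replicates 4 and 5, the libraries with the most neocortical marker RNA (240, 209 and 248 CPM summed over 7 genes, against 102 to 156 CPM in the other 7). Of the neocortical genes 3 were higher and 4 lower in RG2833 rats, 2 at an unadjusted p under 0.05, both higher. Over the 10 libraries Vip and this list had r = 0.771 and rho = 0.794 (permutation p = 0.00847 and 0.00869, adjusted 0.163 and 0.133), which did not pass. Without RG2833 replicates 4 and 5, the 2 farthest libraries, r was 0.820. That omission keeps untreated replicate 3, so it does not remove the group of high libraries.

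Each member was also set against 13 lists of cell markers over the 10 libraries, which makes 130 relations. None passed adjustment; the smallest adjusted permutation p was 0.133 for r and 0.109 for rho. The 3 with the smallest p for r were those of Vip with the striatal list (r = 0.841, rho = 0.855; permutation p = 0.00221 and 0.00289; adjusted 0.133 and 0.121; r = 0.777 without the 2 farthest libraries), with the excitatory neuron list (r = -0.818, rho = -0.794; permutation p = 0.00275 and 0.00809; adjusted 0.133 and 0.133; r = -0.717 without the 2 farthest) and with the microglia list (r = 0.819, rho = 0.903; permutation p = 0.00306 and 0.00084; adjusted 0.133 and 0.109; r = 0.730 without the 2 farthest). For these 3 lists the 2 farthest were untreated replicate 3 and RG2833 replicate 5, and RG2833 replicate 4, also high in Vip, stayed in. Neocortical and striatal tissue hold Vip neurons too, and their part in the Vip values was not tested.

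**Figure D2:**
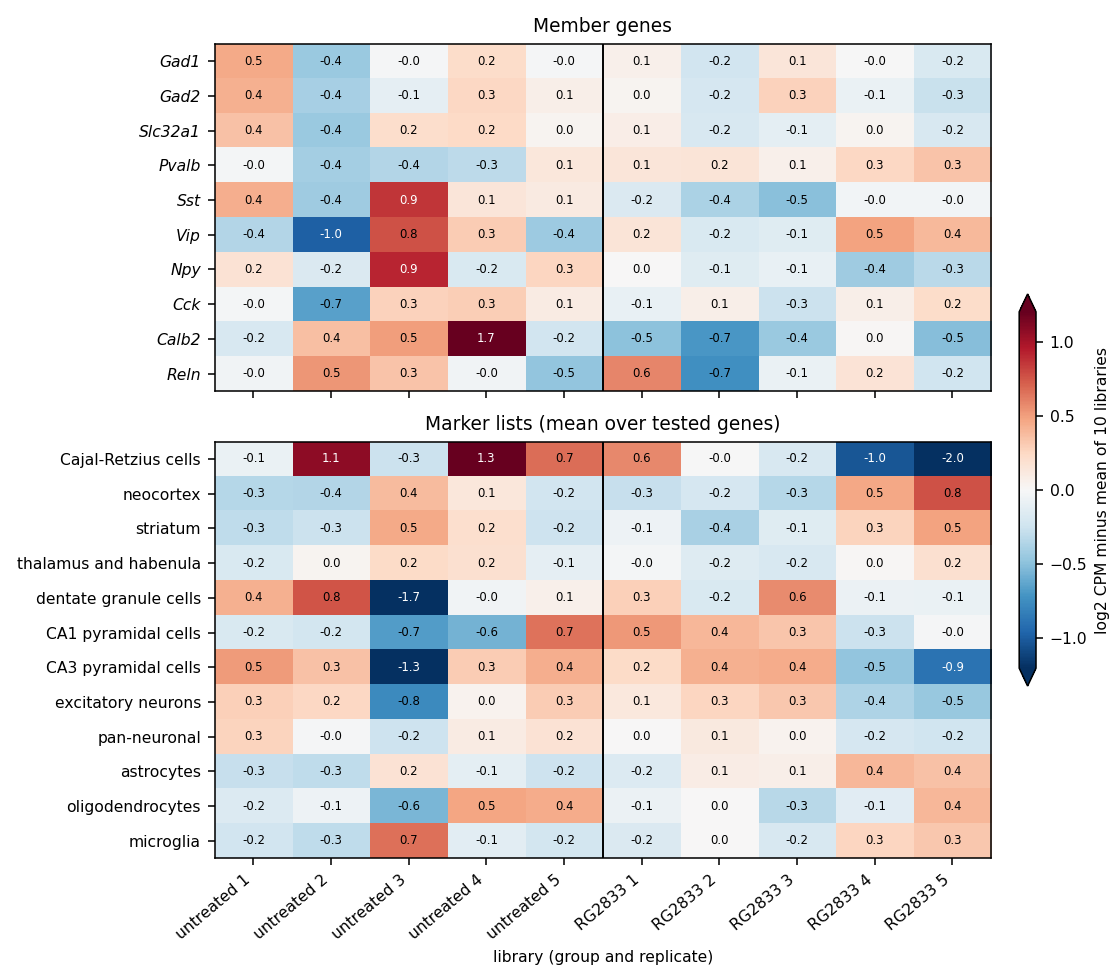
Log2 CPM minus the mean of the 10 libraries (colour and number) for the member genes (top) and for the mean of marker lists (bottom), by library; the line divides untreated from RG2833. Untreated replicate 3 is high for Sst, Vip and Npy and low for dentate granule and CA3 markers, and untreated replicate 4 is high for Calb2 and Cajal-Retzius markers.

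Cck encodes cholecystokinin, which in hippocampus is made by a class of basket cells and also by pyramidal neurons. It was at 168.4, 109.2, 208.0, 210.9 and 183.5 CPM in untreated and 161.2, 180.6, 143.2, 180.9 and 199.6 CPM in RG2833 rats. Means of 176 ± 41.3 and 173 ± 21.5 CPM (SD, n = 5 each) differed by less than either SD. The log2 fold change was -0.02 (SE 0.17, interval -0.39 to 0.34; edgeR adjusted p = 0.996). That interval holds changes from 0.764 to 1.27 times the untreated level. Over the libraries Cck correlated with Vip at r = 0.779 and rho = 0.612 (permutation p = 0.00742 and 0.0670; adjusted 0.0946 and 0.431), which did not pass, and at r = 0.411 without the 2 libraries farthest from the median of Vip.

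Reln encodes reelin, a secreted protein that guides neuronal placement in development and tunes synapses in the adult. It was at 85.3, 126.7, 111.3, 85.7 and 63.2 CPM in untreated and 132.1, 52.8, 83.1, 98.8 and 74.7 CPM in RG2833 rats. Both extremes belonged to RG2833 rats, and Reln was the only member with a larger SD there (29.6 against 24.8 CPM). The log2 fold change was -0.10 (SE 0.24, interval -0.64 to 0.44; edgeR adjusted p = 0.977). The 2 highest Reln values were in the 2 libraries rich in choroid plexus RNA; without both, the log2 fold change was -0.17 with an unadjusted p of 0.448. Leaving out untreated replicate 2 alone gave 0.0309, RG2833 replicate 1 alone -0.29 and RG2833 replicate 2 alone 0.0406, so the sign rested on single libraries. The libraries form 2 clusters by choroid plexus RNA, so no pooled correlation is given; over the 8 libraries with little of it, Reln and the choroid plexus list had r = 0.557 (no test). The part of that tissue in the Reln values was not tested.

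Of the 8 reelin receptors and relay genes listed, 6 were tested, 5 higher and 1 lower, and 0 had an unadjusted p under 0.05. Vldlr, a reelin receptor gene, had a log2 fold change of -0.04 (SE 0.14), and Dab1, the adaptor that relays the reelin signal, one of 0.14 (SE 0.09). The median of the list was 0.07.

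**Figure D3:**
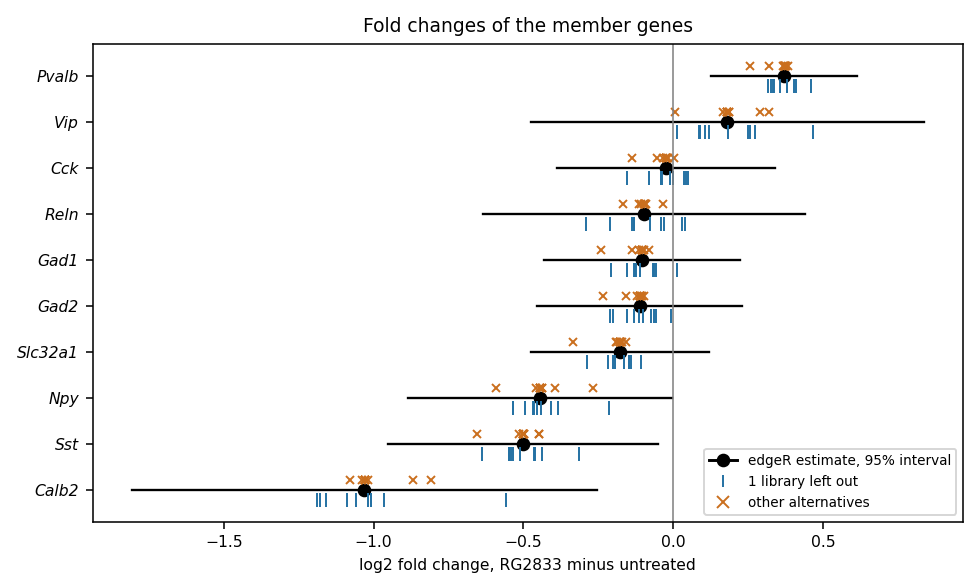
Log2 fold change of each member gene, RG2833 minus untreated (horizontal axis), with its 95% interval (line), values with 1 library left out (blue ticks) and values under other alternatives (orange crosses). The intervals of Pvalb, Npy, Sst and Calb2 exclude 0 before adjustment, and Calb2 has a tick at -0.56 where untreated replicate 4 was left out.

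The members varied more between rats than most genes did. Their median coefficient of variation over the 10 libraries was 23.4%, against 13.3% over all tested genes. Within groups the untreated rats varied more: 9 of 10 members had a larger SD of CPM there, against 68.2% of all tested genes. For Sst the SD was 3.24 times as large in untreated as in RG2833 rats, for Npy 3.92 times and for Calb2 6.65 times. These ratios were not tested, and untreated replicates 3 and 4 hold the extreme values behind them.

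Among the 45 pairs of members, 36 had a positive r and 9 a negative one, and 2 passed adjustment, both among the genes of GABA synthesis and release. The number passing was 1 in 8 of the 10 omissions of a single library. Beside Gad1 with Gad2, Gad1 correlated with Slc32a1 (r = 0.871, rho = 0.794; permutation p = 0.0013 and 0.00897; adjusted 0.0292 and 0.202), and r was 0.648 without the 2 libraries farthest from the median of Gad1. Slc32a1 and Sst reached r = 0.759 and rho = 0.721 (permutation p = 0.0106 and 0.0235; adjusted 0.0946 and 0.202; r = 0.703 without the 2 farthest). The most negative pair was Pvalb with Calb2 at r = -0.741 and rho = -0.733 (permutation p = 0.00893 and 0.0206; adjusted 0.0946 and 0.202; r = -0.809 without the 2 farthest). Within groups their r was -0.640 in untreated and 0.258 in RG2833 rats, so the negative relation did not hold within both. Gad1 and Gad2 kept a high r within each group, 0.980 and 0.931 (n = 5 each, no test).

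**Figure D4:**
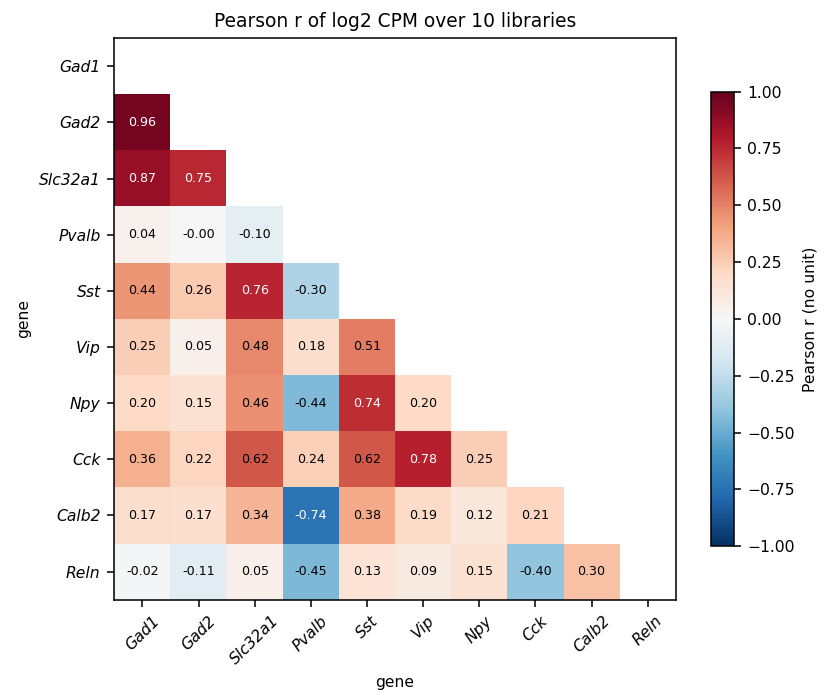
Pearson r of log2 CPM over the 10 libraries for each of the 45 pairs of member genes (colour and number). Gad1, Gad2 and Slc32a1 form the block of high values at the top left, and Pvalb with Calb2 is the most negative at -0.74.

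The genes most like each member over the 10 libraries were taken from 9283 named genes with a mean of at least 5 CPM, as a description. For Slc32a1 they were Nol4 (r = 0.933), Dlx1 (0.927) and Nxph1 (0.898). Dlx1, a homeobox gene of the GABAergic lineage, and Nxph1, a secreted protein gene of interneurons, stand on the companion lists. For Gad1 they were Ttc3 (0.899), Gprasp1 (0.841) and Lrrc4c (0.838), and for Gad2 Ap3m2 (0.910), Ttc3 (0.876) and Spryd4 (0.874).

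The peptide genes had other neighbours. For Sst they were Ctsf (r = 0.949), Meaf6 (0.931) and Vgf (0.911), the last a secretory granule protein induced by activity, and for Npy Cops4 (0.930), Lin37 (0.922) and Dennd6b (0.915). Vip was nearest to Kcnf1 (0.945), Kcnk3 (0.939) and Hsbp1 (0.938), and Cck to MGC116197 (0.962), Slc35f1 (0.932) and Camkmt (0.907). Pvalb was nearest to Endog (0.911), Uqcrfs1 (0.911) and Kctd15 (0.902), of which Endog and Uqcrfs1 encode mitochondrial proteins. Calb2 was nearest to Gadd45g (0.906), Gpx3 (0.889) and Tubb6 (0.880), and Reln to Slc35d1 (0.925), Klhdc8b (0.924) and Manba (0.920). All points share their libraries and scaling, and each neighbour is among the 3 highest of 9283 candidates. Without the 2 libraries farthest from the member's median these r ran from 0.395 (Gad1 with Lrrc4c) to 0.944 (Reln with Slc35d1); for Gad1 with Ttc3 it was 0.672 and for Npy with Lin37 0.581.

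Beyond the members, 77 companion genes in 5 lists were examined, of which 66 were tested. At an unadjusted p under 0.05 there were 6 (9.09%), 3 higher and 3 lower, against 5.66% of all genes, and 0 had an adjusted p under 0.05. Their median log2 fold change was 0.03, with 39 higher and 27 lower.

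Among GABA transport and turnover genes, 12 of 13 were tested, 7 higher and 5 lower in RG2833 rats, with a median of 0.15. Only Glul, which encodes the astrocytic glutamine synthetase that supplies the precursor of transmitter glutamate and GABA, had an unadjusted p under 0.05. It was at 1330, 1303, 2008, 1604 and 1454 CPM in untreated and 1533, 1705, 1882, 2395 and 2743 CPM in RG2833 rats, a log2 fold change of 0.41 (SE 0.18; unadjusted p = 0.0420, edgeR adjusted p = 0.841). The unadjusted p of Glul was under 0.05 in 13 of the 20 alternatives and reached 0.113 without RG2833 replicate 5. Slc6a11, a GABA uptake carrier of astrocytes, had one of 0.35 (SE 0.25). The GABA-degrading enzymes Abat and Aldh5a1 had 0.28 (SE 0.15) and 0.28 (SE 0.13). Astrocyte markers lay on the same side: 8 of 8 were higher, 2 at an unadjusted p under 0.05, with summed levels of 4536 to 6154 CPM in untreated and 4975 to 6896 CPM in RG2833 rats. Their part in the Glul values was not tested. Slc6a13, a carrier of the meninges and choroid plexus, had -0.94 (SE 0.59), and 0.11 without the 2 libraries rich in choroid plexus RNA.

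Of the interneuron transcription factors, 14 of 17 were tested, 6 higher and 8 lower, with a median of -0.10. Npas1, a factor of caudal and medial ganglionic eminence interneurons, was at 26.1, 17.4, 18.7, 19.5 and 23.0 CPM in untreated and 24.2, 24.1, 27.2, 27.7 and 23.0 CPM in RG2833 rats. Its log2 fold change was 0.27 (SE 0.11; unadjusted p = 0.0375, edgeR adjusted p = 0.841), and the unadjusted p was under 0.05 in 12 of the 20 alternatives. The lineage factors Dlx1 and Lhx6 had log2 fold changes of -0.16 (SE 0.15) and 0.11 (SE 0.16). Dlx2 and Sp8, at low means of 2.41 and 1.01 CPM, had -0.50 (SE 0.23) and -0.95 (SE 0.51), and Satb1 and Sox6 had 0.34 and 0.30. None of these had an unadjusted p under 0.05.

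The subtype list had 23 of 26 genes tested, 12 higher and 11 lower, with a median of 0.02. Beside Syt2, the prepropeptide genes Pnoc and Penk had an unadjusted p under 0.05, both lower in RG2833 rats. Penk, the enkephalin precursor, was at 46.5, 36.2, 57.4, 38.0 and 31.6 CPM in untreated and 31.9, 31.1, 36.3, 32.0 and 27.6 CPM in RG2833 rats. Its log2 fold change was -0.40 (SE 0.15; unadjusted p = 0.0220, edgeR adjusted p = 0.841) and -0.26 without untreated replicate 3, where Penk, like Sst and Npy, was highest. Pnoc, the nociceptin precursor, went from 8.19 ± 1.74 to 6.22 ± 1.07 CPM (SD, n = 5 each), and its log2 fold change was -0.40 (SE 0.17; edgeR adjusted p = 0.841). The unadjusted p was under 0.05 in 13 of the 20 alternatives for Pnoc and in 17 for Penk. Tac1, the substance P precursor, had -0.55 (SE 0.34) and -0.301 without untreated replicate 3, and Crh, the corticotropin-releasing hormone gene, 0.18 (SE 0.16).

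Receptors of the interneuron peptides gave 11 tested genes of 13, 9 higher and 2 lower, with a median of 0.05 and 0 at an unadjusted p under 0.05. The somatostatin receptor genes Sstr1, Sstr2, Sstr3 and Sstr4 had log2 fold changes of 0.16, 0.06, 0.03 and 0.04. The neuropeptide Y receptor genes Npy1r, Npy2r and Npy5r had -0.06, 0.23 and 0.05. Vipr2, a receptor of vasoactive intestinal peptide, had the largest at 0.33 (SE 0.16).

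**Figure D5:**
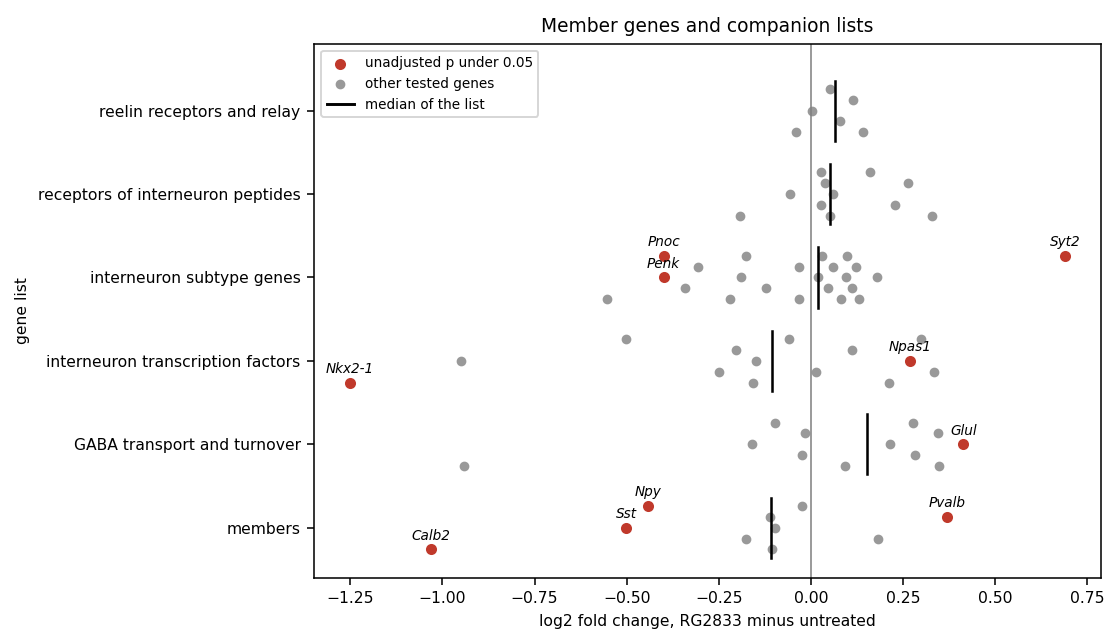
Log2 fold changes, RG2833 minus untreated (horizontal axis), of each tested gene by list (points), with list medians (black bars) and named genes at an unadjusted p under 0.05 (red). The members and the transcription factors have medians below 0, at -0.11 and -0.10, and the other lists at or above 0.02.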

How the data were processed

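Libraries were strand-specific mRNA libraries from column-purified total RNA, per the labels' protocols. The submitters' processing notes name bcl2fastq 2.17, Bowtie2 2.1.0, RSEM 1.2.15, edgeR and the build rn6. The authors deposited RSEM expected counts per gene (11.6% of values not whole) and a signal table of TMM-normalized CPM. From that deposited signal table whole reads were recovered for 100% of values (within 0.05 of a whole number), and at least 99.913% per library equalled the rounded expected counts.

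Expected counts were rounded. Genes passing filterByExpr (minimum count 10, minimum total 15) were fitted with edgeR 4.0.16 (R 4.3.3), TMM scaling and the robust quasi-likelihood F test, with Benjamini-Hochberg adjustment over 12161 genes at 0.05. SEs were taken from the F statistic. CPM are on the TMM-scaled library size, and log2 CPM used a prior count of 2. The deposited scaling differed from it by a factor of 0.987 to 1.03 per library. Correlations used 100000 resamples, two-sided. The fit was tested on simulated data. Tools for alternatives were DESeq2 1.42.0 and limma 3.58.1.

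The members and gene lists were chosen with earlier results of these data known. All members are named. Companion genes are named at an unadjusted p under 0.05, or by highest mean or largest fold change. A few (Kcnc1, Kcnc2, Cox6a2, Lhx6, Sox6, Dlx1, Dlx2, Crh, Vldlr, the GABA enzymes and carriers and the peptide receptors) were named for their role after their values were seen. The nearest genes are the 3 with the highest r for each member. Replicates are labelled as separate rats; p-values measure the spread between these samples. No 2 libraries were counted as 1 (chi-square per gene at least 7.46 over 45 pairs).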

Additional observations from a re-analysis of the deposited data

Results flagged for a closer look

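Each member's CPM in each library was set beside the remaining 4 of its group, in 20 sets of 5 values, and 1 set held a value whose gap to its nearest neighbour exceeded 0.71 of the group's range; chance gives about 1 in 20 sets. This was Calb2 in untreated replicate 4, at 44.9 CPM, with a gap of 0.767 of the range. Ebf3 and Nkx2-1 were also highest in that library.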

How the results depend on the processing

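Of the 20 alternatives, all kept every member on the same side of the adjusted threshold. The number of genes with an adjusted p under 0.05 was 7 in DESeq2 and 0 in the other 19. The count of members at an unadjusted p under 0.05 was 2 in limma-voom with sample weights (Pvalb and Sst) and ranged from 2 to 5 with 1 library left out. Signs changed for 3 members: Gad1 ranged from -0.209 to 0.0115, Cck from -0.155 to 0.0492 and Reln from -0.29 to 0.0406 with 1 library left out. Cck was also 0.00303 with the replicate number as a block. Slc6a13 ranged from -1.15 to 0.089 with 1 library left out and was 0.108 without both choroid-rich libraries. Pairs of members passing adjustment numbered 4 with values centred on group means, 1 without both choroid-rich libraries, and 1 to 3 with 1 library left out. The cause of these changes was not tested. Same-numbered libraries did not deviate together (correlations of -0.487 to -0.0339 over 5 numbers, and 0 of 5 correlated best with their own number). The labels do not state a pairing. These correlations cannot exclude that the rats were paired, because other differences between libraries enter them too. With the replicate block 0 genes had an adjusted p under 0.05 and 401 an unadjusted one, against 688. The alternative from the whole reads recovered from the deposited table, with its scaling, was chosen after seeing the data and called 0 genes (652 at an unadjusted p under 0.05).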
